A study of Rattus norvegicus with 10 samples.

Results

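The genes described here are 10 enzymes of the phospholipase A2 and eicosanoid families: the phospholipase A2 genes Pla2g2a, Pla2g4a, Pla2g5, Pla2g6, Pla2g7 and Pla2g12a, the cyclooxygenases Ptgs1 and Ptgs2, the prostaglandin E synthase Ptges and the 5-lipoxygenase Alox5. They are a list of names fixed by function, with no measured value in the rule, and the list was drawn up with earlier results of these data known. Of the 13426 genes matched to a probe with a value on every array, 9 of the 10 enzymes were found, with 10 probes, Pla2g5 having 2 of them; no probe matched Pla2g12a, which was not analysed here.

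RNA of whole liver was measured in 10 male rats, 1 array per rat, 24 h after irradiation. The control group held 3 rats labelled with a dose of 0 Gy. The TBI group held 3 rats that received total-body irradiation (TBI) of 6.5 Gy from a 60Co source at 2 Gy/min, as the labels have it; the study's text states a lower dose. The MASM + TBI group held 4 rats given MASM, a derivative of the plant alkaloid matrine, by mouth at 30 mg/kg/day for 3 days and then the same irradiation. No group received MASM without irradiation, so an effect of MASM alone was not measured. The age of the rats is not given in the labels. Levels are given as log2 of the normalised signal, so that a difference of 1 is a doubling, and a probe is called well above background where the scanner software marked it so.

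Phospholipases A2 cut a fatty acid, often arachidonic acid, out of membrane phospholipids. Cyclooxygenases turn free arachidonic acid into the precursor from which terminal synthases make prostaglandins and thromboxane, and 5-lipoxygenase with its helper protein starts the leukotriene branch. In liver, the Kupffer cells, the resident macrophages, are a known source of prostanoids, and the secreted enzyme encoded by Pla2g2a is known as an inflammatory, acute-phase type protein in the rat.

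Pla2g2a and Ptges were the 2 members that rose in TBI against control. The 250 bases before their start sites are shown to place them (RefSeq, GRCr8, each on its own strand from 5′ to 3′). Pla2g2a lies at chr5:156359475-156359724 on the plus strand, and Ptges at chr3:34586988-34587237 on the minus strand. Capitals mark matches to any of 6 motifs searched on both strands. The GC box was searched as GGGCGG and the TATA box as TATAAA. The AP-1 motif was searched as TGANTCA, the motif of STAT factors as TTCNNNGAA and that of C/EBP factors as TTGCNNAA. The E-box was searched as CACGTG.
Pla2g2a: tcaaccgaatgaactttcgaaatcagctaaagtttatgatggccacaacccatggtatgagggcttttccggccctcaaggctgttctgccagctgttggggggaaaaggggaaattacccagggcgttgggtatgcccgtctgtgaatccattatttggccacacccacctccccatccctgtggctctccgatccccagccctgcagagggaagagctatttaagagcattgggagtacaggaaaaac
Ptges: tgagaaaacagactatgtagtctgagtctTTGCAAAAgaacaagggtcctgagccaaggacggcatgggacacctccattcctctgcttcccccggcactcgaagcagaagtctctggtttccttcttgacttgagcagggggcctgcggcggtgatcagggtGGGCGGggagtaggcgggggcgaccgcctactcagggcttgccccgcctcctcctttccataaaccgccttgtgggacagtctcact
The Ptges sequence held TTGCNNAA from 221 to 214 bases and GGGCGG from 87 to 82 bases before the start. Of all 33469 promoters in the table, 9.22% held the former and 30.5% the latter in the same window. The window of Ptgs2 also held both, as did the windows of Pla2g6, which has more than 1 start in the table, as a set. None of the 6 motifs was spelled out in the Pla2g2a window, which says only that these letters are not there; the other motifs occurred in 12.9% (TATA box), 6.34% (AP-1), 7.67% (STAT) and 5.59% (E-box) of all promoters. In the same annotation Pla2g5 is the protein-coding gene next to Pla2g2a, and Ptgs2 is the one next to Pla2g4a.

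The arrays stood apart by slide. The 3 TBI arrays shared a slide and a scan that held no other group, so that irradiation without MASM and slide cannot be told apart, and they had more spots well above background (64.1% to 70.1%) than the control arrays (57.2% to 59.9%) and the MASM + TBI arrays (56.2% to 60.2%). The control arrays shared theirs with MASM + TBI rat 3, and the other MASM + TBI arrays were on another slide. Cdkn1a, the p53 target used as a check of the irradiation labels, rose by 5.36 (adjusted p = 0.000130) in TBI and by 4.80 (adjusted p = 0.000146) in MASM + TBI against control in limma. The study's heatmap headings give some of these arrays under the other of the 2 groups, control or TBI; the groups here follow the labels. The hepatocyte markers, 5 of 5, were well above background on every array. In whole tissue, fewer cells of a type and less RNA per cell cannot be told apart.

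Pla2g2a, the secreted group IIA enzyme, gave the clearest difference among the members. Its log2 level was 5.60, 5.09 and 6.48 in the control rats, 8.75, 8.10 and 7.95 in the TBI rats, and 6.95, 6.25, 7.18 and 7.11 in the MASM + TBI rats. The 3 TBI rats were above every other rat, and the MASM + TBI rats lay below them and overlapped the highest control rat. As geometric means these are signals of 52.9 in control, 308 in TBI and 117 in MASM + TBI, all 10 arrays being well above background. Pla2g2a rose 5.83-fold in TBI against control (log2 difference 2.54 ± 0.39 SE, limma adjusted p = 0.0110, 3 rats a group).

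For MASM + TBI against TBI the log2 difference of Pla2g2a was -1.40 ± 0.37 (SE), with a 95% interval from -2.24 to -0.56 and no overlap between the 4 and the 3 rats, but its adjusted p of 0.119 in limma (unadjusted 0.00478) missed the threshold. It passed with 75th-percentile scaling (adjusted p = 0.0402) and with slide as a random block (adjusted p = 0.0374), while with normexp background correction the difference was -0.85 and in the methods' t-test the adjusted p was 0.352. Against control the MASM + TBI rats were higher by 1.15 ± 0.37 (SE; limma adjusted p = 0.150, unadjusted 0.0133), with an interval from 0.31 to 1.99. MASM + TBI rat 3, on the slide of the control arrays, was 1.46 above the control mean and above each of them. The rise in TBI held when any 1 of the 10 rats was left out (limma adjusted p from 0.0117 to 0.0372) and missed the threshold in a model of the 2 groups alone (adjusted p = 0.0511) and in the methods' t-test after adjustment (0.252); with normexp background correction the difference was 1.34 and passed. The study named Pla2g2a, and listed Ptges, Alox5ap, Ptgds and Ptgfr among many others, as changed in these same rats, so their direction on the arrays is not independent evidence. For Pla2g2a the study also ran quantitative PCR, in more rats a group than the arrays held. It described the changes of the genes chosen for PCR as qualitatively alike by both methods.

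**Figure D1:**
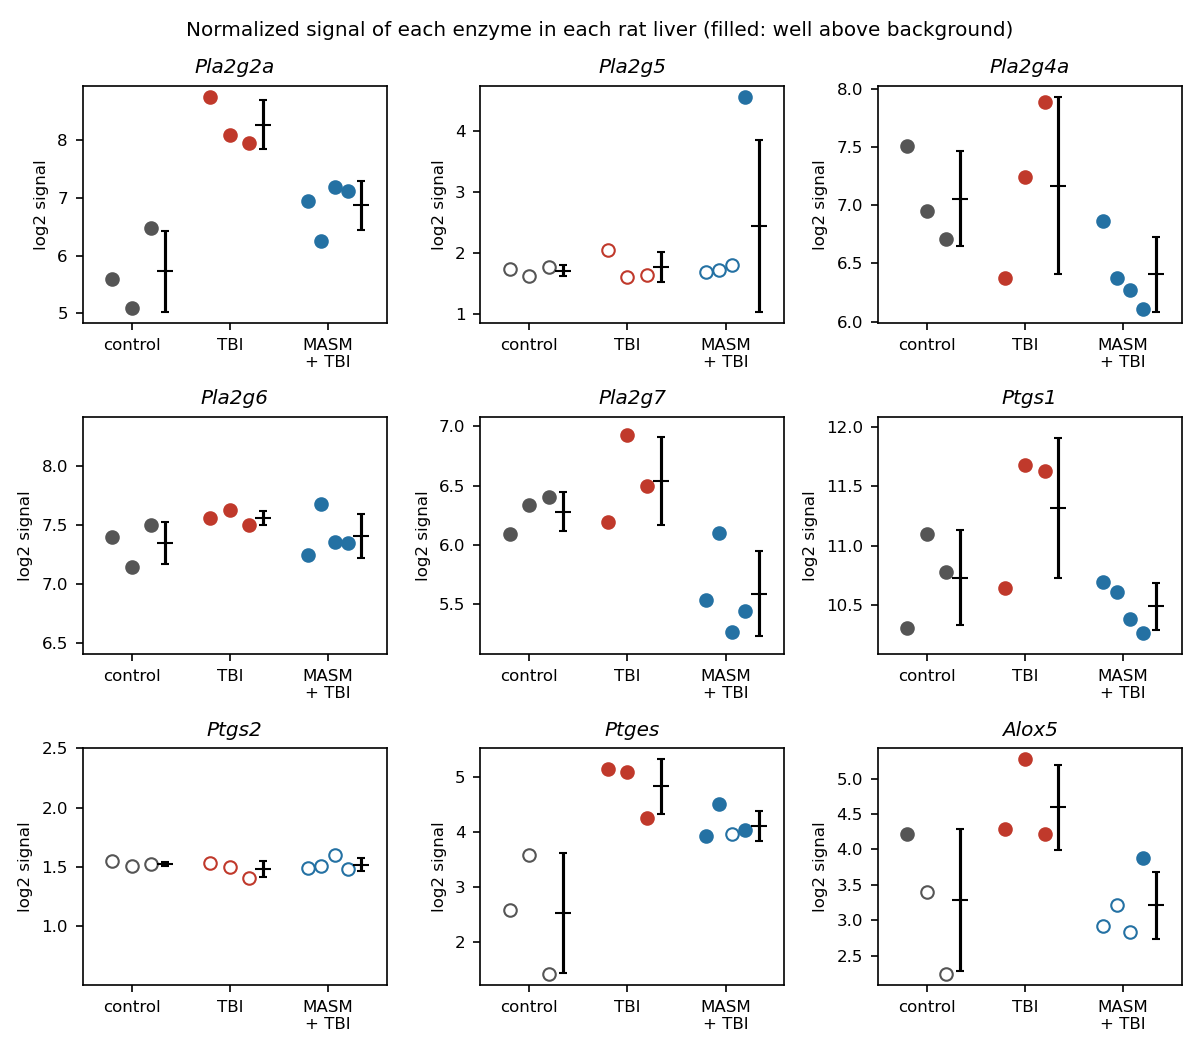
Normalised log2 signal (vertical axis, its range differing between panels) of the 9 measured enzymes in each rat of the control (grey), TBI (red) and MASM + TBI (blue) groups. Filled points were well above background, open points were not, and the black bars give mean ± SD. Pla2g2a in the 3 TBI rats, from 7.95 to 8.75, lies above all other rats, and Ptgs2 is open in all 10.

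Pla2g5, another secreted phospholipase A2 and the neighbour of Pla2g2a, was near the floor of the array. Its probe A_44_P452300 read 1.62 to 1.78 in control, 1.61 to 2.05 in TBI and 1.69 to 1.81 in 3 of the MASM + TBI rats, none of them well above background. MASM + TBI rat 4 alone read 4.57 and was above background, whereas the other Pla2g5 probe, A_44_P549075, read 1.59 in that rat and was above background in no rat. Pla2g5 was thus measured on 1 of the 10 arrays by 1 of its 2 probes, which gives no level for it in any group.

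The intracellular phospholipases A2 Pla2g4a and Pla2g6 were measured in every rat and neither passed the test. Pla2g4a, the calcium-dependent cytosolic phospholipase A2 that prefers arachidonic acid, read 7.50, 6.95 and 6.71 in control, 6.37, 7.24 and 7.89 in TBI, and 6.86, 6.38, 6.28 and 6.11 in MASM + TBI. The TBI rats spread over more than the range of the controls, and the sign of their difference from control, 0.11 with all rats, turned to -0.25 without TBI rat 3. Pla2g6, the calcium-independent enzyme, varied least of the members measured in every rat, between 7.15 and 7.67 over the 10 rats. Its largest difference, TBI against control, was 0.21 with a 95% interval from -0.09 to 0.51 (limma adjusted p = 0.369).

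Pla2g7, the platelet-activating factor acetylhydrolase that macrophages secrete, was lowest after MASM. It read 6.10, 6.34 and 6.41 in control, 6.19, 6.93 and 6.50 in TBI, and 5.54, 6.10, 5.27 and 5.45 in MASM + TBI. Each MASM + TBI rat was below each TBI rat, and all but rat 2 were below the controls. The difference was -0.95 ± 0.23 (SE) against TBI (limma adjusted p = 0.0959, unadjusted 0.00287) and -0.69 ± 0.23 against control (adjusted p = 0.164, unadjusted 0.0156), neither of them past the threshold; against TBI it passed with 75th-percentile scaling (0.0385) and with slide as a random block (0.0334), while with normexp background correction the difference was -0.35 and in the methods' t-test the adjusted p was 0.353. TBI and control overlapped, with a difference of 0.26 and an interval from -0.30 to 0.82.

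The constitutive cyclooxygenase Ptgs1 was well above background on all 10 arrays and the inducible Ptgs2 on none. Ptgs1 read 10.31, 11.10 and 10.78 in control, 10.64, 11.68 and 11.63 in TBI, and 10.69, 10.61, 10.38 and 10.27 in MASM + TBI. In TBI, 2 of 3 rats were above every control and the remaining 1 was among them. The log2 difference was 0.59 ± 0.30 (SE) for TBI against control (limma adjusted p = 0.286) and -0.83 ± 0.28 for MASM + TBI against TBI (adjusted p = 0.191, unadjusted 0.0183). The latter passed the threshold without TBI rat 1 (-1.17, adjusted p = 0.0401) and in no other leave-one-out fit. Ptgs2 read between 1.41 and 1.60 in all rats, which gives no level for it in any group.

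Ptges, the inducible microsomal enzyme that makes prostaglandin E2 from the cyclooxygenase product, rose from below background. Its log2 level was 2.58, 3.59 and 1.41 in the control rats, none well above background, 5.14, 5.10 and 4.24 in the TBI rats, all above it, and 3.92, 4.51, 3.96 and 4.03 in the MASM + TBI rats, of which all but rat 3 were above it. The control rats were below all irradiated rats, and the irradiated groups overlapped. Because the control level is only a bound, the mean of the TBI rats was set against the lowest signal that counted as well above background on each control array (or the probe's own where higher): Ptges was at least 1.92-fold higher in TBI (limma adjusted p = 0.0367). For MASM + TBI against control, with 3 of 4 rats measured in the one group and none in the other, no fold is given; the fit did not call it (limma adjusted p = 0.122, unadjusted 0.00891), except with slide as a random block (adjusted p = 0.0486). MASM + TBI rat 3, the only rat of its group on the slide of the controls, was like them not above background, so this slide gives no level to compare. Against TBI the MASM + TBI rats differed by -0.72, with a 95% interval from -1.79 to 0.35.

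The Ptges call was close to the threshold. The fitted log2 difference between TBI and control, which rests on control values below background, was 2.30 ± 0.50 (SE), and the call was lost when control rat 1 (adjusted p = 0.0886), control rat 3 (0.0675), TBI rat 1 (0.0839), TBI rat 2 (0.0934), MASM + TBI rat 1 (0.0585), MASM + TBI rat 2 (0.0524) or MASM + TBI rat 4 (0.0558) was dropped. It held in the other 3 leave-one-out fits, and it was lost in a model of the 2 groups (adjusted p = 0.117) and in the methods' t-test (0.329). After normexp background correction, in which an offset of 50 is added to every signal, the difference was 0.32 and under 1.5-fold.

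**Figure D2:**
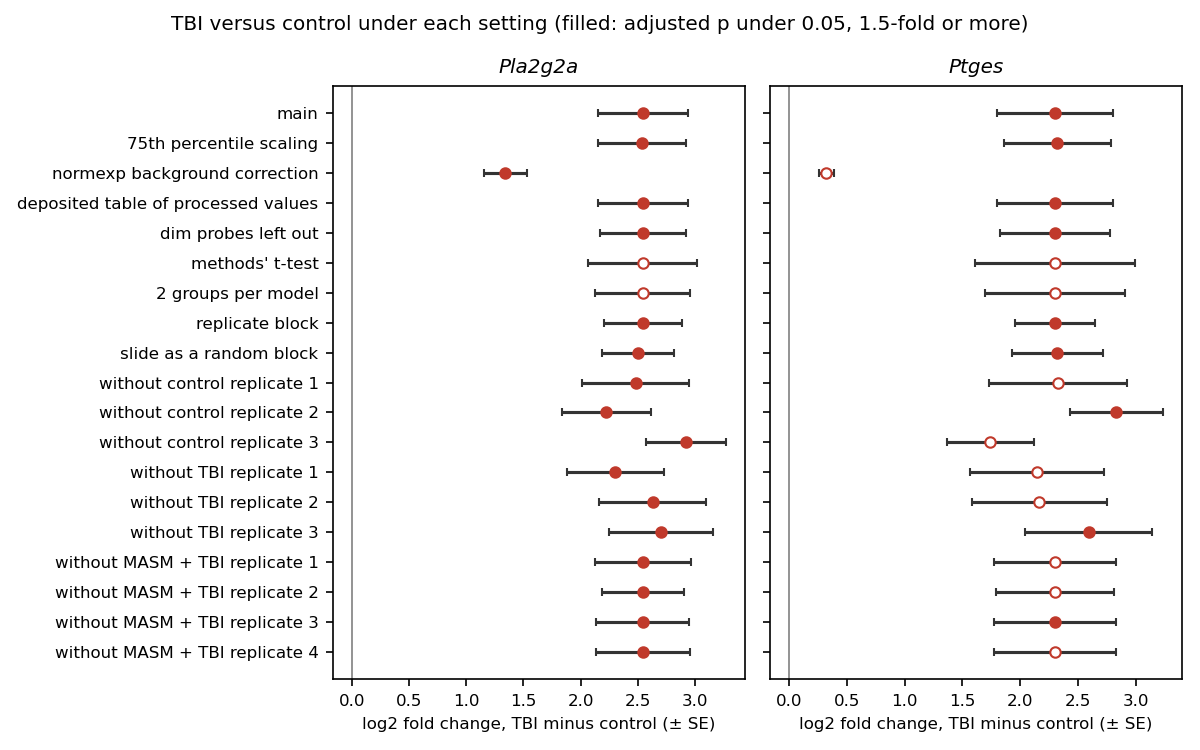
Log2 difference between TBI and control (horizontal axis, ± SE) of Pla2g2a and Ptges under the main fit and each alternative listed on the vertical axis. Filled points are past the threshold; for Pla2g2a that is every fit except the methods' t-test and the model of 2 groups, and every estimate for both genes is above 0; those for Ptges rest on control rats below background.

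Alox5, the enzyme that opens the leukotriene branch, was dim. It read 4.22, 3.40 and 2.24 in control with rat 1 alone above background, 4.28, 5.28 and 4.22 in TBI with all 3 above it, and 2.92, 3.21, 2.83 and 3.88 in MASM + TBI with rat 4 alone above it. The TBI rats were above every MASM + TBI rat but touched control rat 1. With most control and MASM + TBI rats below background, their level is not measured and no fold is given. The fitted log2 differences, which rest on such values, were 1.31 ± 0.52 (SE) for TBI against control (limma adjusted p = 0.176, unadjusted 0.0348) and -1.38 ± 0.49 for MASM + TBI against TBI (adjusted p = 0.200, unadjusted 0.0207). The TBI arrays reached lower signals above background (2.54 to 3.16) than the control arrays (3.71 to 4.004) and the MASM + TBI arrays (3.68 to 4.10); the part of this in the Alox5 and Ptges values was not tested.

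Counted over the 9 measured members, 2 rose and none fell in TBI against control at an adjusted p under 0.05 with at least 1.5-fold, where 2.01% of all 40945 probes rose and 2.49% fell. At the study's unadjusted threshold 3 were higher (Pla2g2a, Ptges and the dim Alox5) and none lower, where 6.53% and 6.09% of all probes were. For MASM + TBI against control none passed the adjusted limma test (0.926% of all probes rose and 1.43% fell), and at the unadjusted threshold Pla2g2a and Ptges were higher and Pla2g7 lower (all probes, 3.52% higher and 4.55% lower). Between the irradiated groups none passed the adjusted limma test (all probes, 0.767% up and 0.625% down), and 4 of 9 were lower at the unadjusted threshold (Pla2g2a, Pla2g7, Ptgs1 and the dim Alox5) where 4.83% of all probes were lower and 3.15% higher. The methods' t-test called no member after adjustment in any comparison. The median log2 difference over the 9 members was 0.26, -0.01 and -0.76 in the 3 comparisons in this order, and over all probes -0.03, 0.00 and 0.04. The comparisons share groups and are given side by side.

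These shares depend on the scaling of the arrays. With each array scaled to its 75th percentile, 1609 probes rose and 5341 fell in TBI against control in place of 821 and 1021, and 4238 rose and 899 fell in MASM + TBI against TBI in place of 314 and 256. Both member calls in TBI against control held under that scaling, and Pla2g2a and Pla2g7 were called lower in MASM + TBI against TBI.

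**Figure D3:**
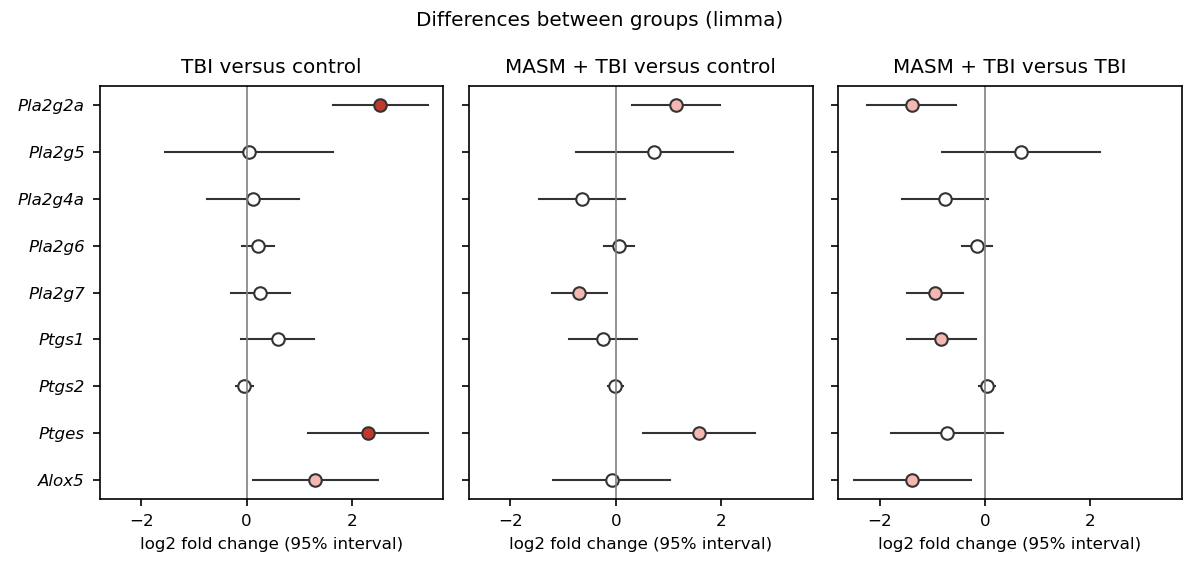
Log2 fold change (horizontal axis) of the 9 measured enzymes with its 95% interval in each of the 3 comparisons, from limma. Dark red points passed the adjusted test, light red points only the unadjusted threshold, and white points neither. Pla2g2a (2.54) and Ptges are the dark red points, the fitted Ptges value (2.30) resting on control rats below background, against which the rise was at least 1.92-fold; 4 points are light red in MASM + TBI against TBI, all below 0.

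Beyond the members, 68 of 81 further genes of the arachidonic acid pathway were measured. Here and in the branch counts this means only that a probe matched. Of the 68, 47 were well above background on all arrays and 11 on none. In TBI against control 2 rose and 3 fell at the adjusted threshold, and 11 were higher and 7 lower at the unadjusted one, beside 2.01%, 2.49%, 6.53% and 6.09% of all probes. In MASM + TBI against control 1 fell and none rose, with 5 higher and 5 lower unadjusted, beside 1.43% and 0.926% of all probes at the adjusted threshold and 3.52% and 4.55% at the unadjusted one. Between the irradiated groups none was called by limma or by the t-test, with 3 higher and 6 lower unadjusted, beside 3.15% and 4.83% of all probes. Ephx1, the microsomal epoxide hydrolase, named after its values were seen, had an adjusted limma p under 0.05 but less than 1.5-fold, being 0.43 higher in MASM + TBI than in TBI (adjusted p = 0.0489). Alox12, the 12-lipoxygenase, was well above background in none of the 10 rats, so no difference is given for it. The median log2 difference of the 68 genes was 0.17, -0.0027 and -0.04 in this order.

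Of the other phospholipases A2 and their receptors, 10 of 17 were measured and none was called in any comparison. The lysosomal phospholipase A2 Pla2g15 read 5.63 to 5.91 in MASM + TBI and 6.28 to 6.67 in control, a difference of -0.77 ± 0.20 (SE; limma adjusted p = 0.0912), with TBI at 5.72, 6.62 and 6.33.

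Among the 10 measured of 11 prostanoid enzymes, Ptgr1, a reductase that inactivates prostaglandins and leukotriene B4, was the only one called. It read 12.97, 12.99 and 12.74 in control, 11.68, 11.41 and 12.15 in TBI, and 11.87, 11.32, 11.85 and 11.87 in MASM + TBI. All irradiated rats were below all controls, and Ptgr1 fell by 1.15 in TBI (limma adjusted p = 0.0228) and by 1.17 in MASM + TBI (adjusted p = 0.0228), with no difference detected between the irradiated groups (-0.02, 95% interval -0.48 to 0.45). Thromboxane synthase, Tbxas1, read 8.52, 9.16 and 8.74 in control, 9.06, 10.24 and 9.80 in TBI, and 8.82, 8.85, 8.53 and 8.57 in MASM + TBI. Its difference was 0.89 ± 0.29 (SE) in TBI against control (adjusted p = 0.111) and -1.01 ± 0.27 in MASM + TBI against TBI (adjusted p = 0.122; 0.0231 without TBI rat 1). Ptgds, the lipocalin-type prostaglandin D synthase, differed by 0.84 (adjusted p = 0.123) and -0.87 (adjusted p = 0.152) in the same comparisons. Prxl2b, a prostamide and prostaglandin F synthase, was 0.65 higher in TBI than in control (adjusted p = 0.0965).

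The receptors and transporters, 15 of 16 measured, gave 2 calls, both lower in TBI. Ptger3, the EP3 receptor for prostaglandin E2, read 7.01, 7.09 and 7.06 in control, 6.16, 5.80 and 6.32 in TBI, and 6.43, 6.96, 6.72 and 6.68 in MASM + TBI. The 3 groups did not overlap: Ptger3 fell by 0.96 in TBI against control (limma adjusted p = 0.0159), and MASM + TBI was 0.60 above TBI (adjusted p = 0.107) and 0.36 below control (difference -0.36, adjusted p = 0.281). Slco2a1, the transporter that takes prostaglandins into cells, read 9.60, 9.81 and 10.00 in control, 9.26, 9.16 and 9.03 in TBI, and 9.57, 9.39, 9.59 and 9.40 in MASM + TBI, and it fell by 0.66 in TBI (adjusted p = 0.0214). Ptgfr, the prostaglandin F2α receptor, was also lowest in the TBI rats, at 5.59 to 5.90 against 6.36 to 6.58 in control and 6.10 to 7.11 in MASM + TBI, with differences of -0.80 in TBI against control (adjusted p = 0.0861) and 0.83 in MASM + TBI against TBI (adjusted p = 0.114). Ptafr, the receptor for platelet-activating factor, went the other way, with 1.02 (adjusted p = 0.133) and -0.90 (adjusted p = 0.221; 0.00872 without TBI rat 1). Abcc4, which exports prostaglandins, was 0.75 higher in MASM + TBI than in TBI (adjusted p = 0.119; 0.0388 without MASM + TBI rat 4).

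The cytochrome P450 branch, 14 of 15 measured, held the 2 genes that rose. Cyp4a8, a fatty acid omega-hydroxylase, read 13.85, 12.25 and 12.70 in control, 15.01, 15.02 and 14.35 in TBI, and 14.13, 14.05, 14.65 and 14.69 in MASM + TBI. It rose by 1.86 in TBI (limma adjusted p = 0.0362), and the difference in MASM + TBI was 1.44 (adjusted p = 0.0878; 0.0187 without control rat 1). Cyp4a3 rose by 1.09 in TBI (adjusted p = 0.0496) and differed by 0.97 in MASM + TBI (adjusted p = 0.0787; 0.00509 without control rat 1), and Cyp4a2 differed by 2.03 (adjusted p = 0.0548) and 1.64 (adjusted p = 0.113). The Cyp4a genes are close in sequence and their probes may cross-hybridise, so which of them changed is uncertain. Ephx2, which hydrolyses the epoxides of arachidonic acid, was 0.83 higher in TBI (adjusted p = 0.0694) and 0.87 in MASM + TBI (adjusted p = 0.0677). Cyp2c11, an epoxygenase of male rat liver, differed by -1.46 (adjusted p = 0.0683) and -1.19 (adjusted p = 0.135), and Cyp2j4, another epoxygenase, by -0.75 in TBI (adjusted p = 0.0797).

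No gene of the lipoxygenase and leukotriene branch, 12 of 14 measured, was called. Alox5ap, the protein that presents arachidonic acid to 5-lipoxygenase, read 5.31, 5.52 and 5.61 in control, 5.84, 6.15 and 6.18 in TBI, and 5.56, 5.35, 5.26 and 5.61 in MASM + TBI. The TBI rats were above all others, by 0.57 against control (limma adjusted p = 0.0506, just under 1.5-fold), and MASM + TBI differed from TBI by -0.61 ± 0.13 (SE; adjusted p = 0.0665; 0.0369 without TBI rat 1). Alox15, the 12/15-lipoxygenase, differed by -0.65 in MASM + TBI against TBI (adjusted p = 0.278). Ltc4s, the leukotriene C4 synthase, read 8.72, 7.66 and 9.73 in control, 7.92, 7.83 and 7.45 in TBI, and 7.38, 6.83, 7.24 and 7.42 in MASM + TBI. The difference from control was -0.97 ± 0.45 (SE; adjusted p = 0.233) in TBI, whose rats overlapped control rat 2, and -1.49 ± 0.42 (adjusted p = 0.106) in MASM + TBI, whose rats did not. Mast cells are known to make leukotriene C4, and the mast cell markers had a mean log2 level of 5.31 to 5.35 in control, 3.64 to 3.74 in TBI and 3.48 to 3.83 in MASM + TBI, with 2 of 5 lower in TBI and 3 of 5 in MASM + TBI than in control at the adjusted threshold (all probes, 2.49% and 1.43% fell). Of the 5, Cpa3 was also called lower by the fit in MASM + TBI than in TBI (limma adjusted p = 0.0350), where none of the MASM + TBI rats was above background. The Cpa3 mean of the TBI rats, 3.59, was under the lowest signal above background on every MASM + TBI array (3.68 to 4.10), so this difference is not measured. Mcpt1 was above background in all 3 control rats, 1 of 3 TBI rats and none of the MASM + TBI rats, where it was at least 7.01-fold lower than in control (limma adjusted p = 0.000478). Their part in the Ltc4s values was not tested. Of the 7 measured of 8 re-esterification and annexin genes none was called; Acsl4, which activates arachidonic acid for return to phospholipids, was 0.67 higher in TBI (adjusted p = 0.118) and 0.68 in MASM + TBI (adjusted p = 0.136).

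The calls among these genes depended on single rats, and leaving one out raised the adjusted p past 0.05 in these fits. Ptger3 in TBI against control lost its call when control rat 2 (0.0526) or control rat 3 (0.0552) was dropped. Slco2a1 lost it when control rat 2 (0.0628), control rat 3 (0.0656) or TBI rat 2 (0.0524) was dropped. For Ptgr1 in TBI this was so for control rat 1 (0.0679), control rat 2 (0.0693), control rat 3 (0.0548), TBI rat 1 (0.0544) and TBI rat 2 (0.0552). In the other comparison of Ptgr1, with MASM + TBI, it was so for control rat 1 (0.0639), control rat 2 (0.0875), control rat 3 (0.0640), MASM + TBI rat 1 (0.0571) and MASM + TBI rat 4 (0.0525). Cyp4a8 had 7 such rats: control rat 2 (0.0881), control rat 3 (0.115), TBI rat 1 (0.0823), TBI rat 2 (0.0927), MASM + TBI rat 1 (0.0561), MASM + TBI rat 2 (0.0521) and MASM + TBI rat 4 (0.0510). The Cyp4a3 call held in 1 of the 10 fits, that with control rat 1 dropped, and ranged from 0.0602 to 0.142 in the other fits. All of these estimates kept their sign. With normexp background correction Ptger3 (-0.47) and Slco2a1 (-0.52) differed by less than 1.5-fold.

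**Figure D4:**
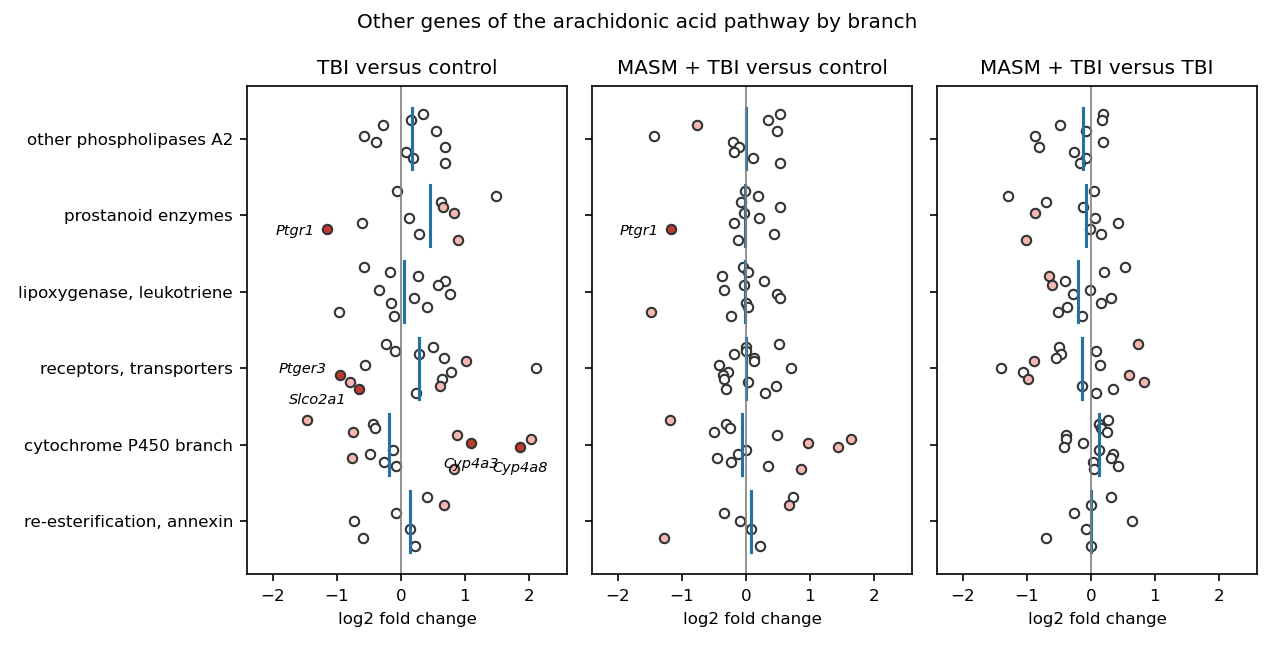
Log2 fold change (horizontal axis) of the 68 other measured pathway genes, 1 point per gene, by branch (vertical axis) in the 3 comparisons; blue bars are branch medians. Dark red points passed the adjusted test and are named, light red points passed only the unadjusted threshold. Cyp4a8 (1.86) and Cyp4a3 (1.09) lie to the right and Ptgr1 (-1.15), Ptger3 (-0.96) and Slco2a1 (-0.66) to the left in TBI against control.

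No macrophage marker passed the adjusted limma test in any comparison. The 9 listed Kupffer cell and macrophage markers passed background on all 10 arrays, 9 of 9, and their mean log2 level was 11.32, 12.02 and 11.78 in control, 11.57, 12.54 and 12.21 in TBI, and 11.57, 11.51, 11.23 and 11.16 in MASM + TBI. TBI rats 2 and 3 were the highest, and MASM + TBI rat 1 read the same as TBI rat 1 to 2 decimals. Between MASM + TBI and TBI all 9 were lower in the former, 7 of them at the unadjusted threshold (all probes, 4.83% lower) and none at the adjusted one, with a median of -0.77; Csf1r differed by -1.10, Adgre1 by -1.06 and Cd68 by -0.89, while Cd163 differed by -0.04. In the same comparison the log2 differences of Ptgs1, Pla2g7, Tbxas1, Ptafr and Alox5ap, picked after their values were seen, were -0.83, -0.95, -1.01, -0.90 and -0.61, and none of the 5 passed the adjusted limma test. Platelet markers, which matter for Ptgs1 and Tbxas1 as platelets make thromboxane, had mean levels of 4.98 to 5.26, 5.27 to 5.80 and 4.89 to 5.06 in control, TBI and MASM + TBI, with 2 of 5 lower in MASM + TBI against TBI at the unadjusted threshold. Neutrophil markers, 7 of 8 measured, overlapped between the groups (3.55 to 3.99, 3.71 to 4.44 and 3.14 to 4.60), and none passed either threshold. Only 2 of these 7 were well above background on all arrays, so the means rest largely on values below it and do not measure neutrophil content. Lymphocyte markers were lower in both irradiated groups: of 5 T cell markers Cd2 and Cd3g fell in TBI and Cd3g in MASM + TBI against control (all probes, 2.49% and 1.43% fell), the fit also calling Cd3e in both, which was above background in no rat of any group. The mean levels of the 5 markers were 5.80 to 6.13 in control, 3.43 to 4.20 in TBI and 3.74 to 4.46 in MASM + TBI. Of the 3 measured of 5 B cell markers, Cd79b fell in both, by at least 4.98-fold (limma adjusted p = 0.00484) and at least 2.55-fold (adjusted p = 0.00378). It was above background in no irradiated rat, and each bound rests on the floor of that group's own arrays. The bounds therefore do not rank the irradiated groups. The part of these cells in the enzymes' values was not tested.

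**Figure D5:**
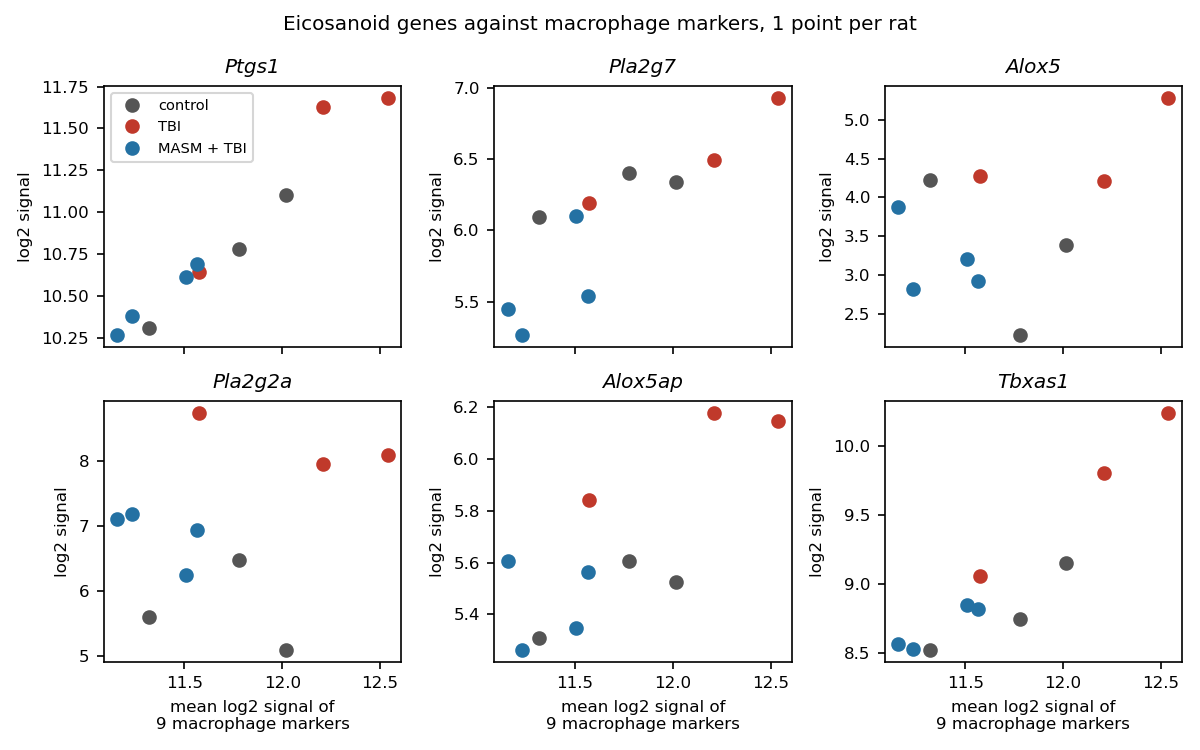
Log2 signal (vertical axis) of 6 genes against the mean log2 signal of the 9 macrophage markers (horizontal axis), 1 point per rat, in control (grey), TBI (red) and MASM + TBI (blue). Ptgs1 is 11.68 and 11.63 in the 2 rats with the highest marker means, TBI rats 2 and 3. Pla2g2a is instead highest, at 8.75, in TBI rat 1, whose marker mean of 11.57 is the lowest of the TBI rats.

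Among 8441 genes with a symbol and well above background on every array, the 5 whose levels followed Pla2g2a most closely over the 10 rats were Nek9 (Pearson r = 0.955), Ube2f (0.953), Tmem176a (0.938), Sv2a (0.933) and Pde4a (0.933). Nek9 encodes a mitotic kinase, Ube2f an enzyme that attaches NEDD8 to proteins, and Pde4a a phosphodiesterase that breaks down cAMP. The rats of all groups enter this measure, so it contains the differences between the groups, and it is a description with no test.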

How the data were processed

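Total RNA of rat liver was hybridised to 1-colour Agilent 4x44K arrays. Per the labels, Agilent Feature Extraction 10.7 (10.7.3.1 in the file headers) gave the processed signal, an intensity on a linear scale that the authors deposited in 1 scanner file per array; the deposited value table held the same intensities (largest difference 0). Outlier and control spots were removed, log2 was taken, arrays were quantile normalised, as in the study's methods, and spots of a probe averaged. Probes took symbols from RefSeq (GRCr8) through the accession in the files (16968 of 41012 probes, 13438 genes, of which 13426 had a probe with a value on every array), and the brightest probe stood for a gene. limma 3.58.1 (R 4.3.3) fitted 3 group means over 10 arrays, with Benjamini-Hochberg adjustment over the 40945 probes present on every array; the script was tested on simulated data. A call needs an adjusted p under 0.05 and 1.5-fold.

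The members and lists were chosen with earlier results of these data known. The text names all members, pathway genes called in any comparison, the up to 8 pathway genes per comparison with the smallest unadjusted p past 0.05 and 1.5-fold and measured in the brighter group, Cdkn1a, and the 5 genes most like Pla2g2a; other markers and the promoter motifs were named after the values were seen. Each array is another rat by the study's text, so p-values measure the spread between these rats. The TBI arrays share 1 slide, so the spread within that group holds no difference between slides. The number of arrays limits the precision. Alternatives were 75th-percentile scaling, normexp background correction with an offset of 50, the deposited table, leaving out dim probes, 2 groups per model, the methods' t-test on the same log2 values, the replicate number or the slide as a block, the probe with the smallest p, and leaving out each rat. The t-test was run with unequal variances and its p-values were adjusted. The study describes a simple t-test at p under 0.05 and names no adjustment, so its own calls are not repeated by it.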

Additional observations from a re-analysis of the deposited data

Results flagged for a closer look

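In the 4 rats of MASM + TBI, a single rat lay far from the others for 3 of the 30 genes looked at; chance flags about 1 in 20 groups. Pla2g5 (probe A_44_P452300) read 4.57 in rat 4 and 1.69 to 1.81 in the other rats. Ptgr1 read 11.3 in rat 2 and 11.9 in the others. Prxl2b, on the prostaglandin F side of the pathway, read 10.3 in rat 2 and 9.78 to 9.84 in the others. The other Pla2g5 probe did not stand apart in rat 4.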

How the results depend on the processing

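Over the genes named, no called difference changed sign under any alternative; 608 values kept their side of the threshold, 61 came to pass it and 63 no longer did. Of the members, 2 were called in TBI against control, 0 in a model of 2 groups, 0 in the methods' t-test, 1 with normexp, and 1 to 2 when 1 rat was left out. In MASM + TBI against control, 1 member, Ptges, was called with slide as a random block in place of 0. In MASM + TBI against TBI, 2 were called with 75th-percentile scaling and 2 with slide as a random block in place of 0, and 0 to 1 when 1 rat was left out. Calls over all probes rose too under the slide block, from 821 up and 1021 down to 2018 and 2060 in TBI against control, from 379 and 584 to 772 and 1033 in MASM + TBI against control, and from 314 and 256 to 679 and 722 in MASM + TBI against TBI. With 75th-percentile scaling they were 1609 and 5341 in TBI against control and 4238 and 899 in MASM + TBI against TBI. In MASM + TBI against TBI they fell to 68 and 11 with normexp and to 140 and 115 in a model of 2 groups. In that comparison the replicate number as a block gave 8 and 14, and the t-test 0 and 3. With dim probes left out 920 rose and 1010 fell of 25274 in TBI against control, and 524 and 698 in MASM + TBI against control. In a model of 2 groups 433 rose and 510 fell in TBI against control and 386 and 592 in MASM + TBI against control; in the latter comparison normexp gave 153 and 302, the fixed slide block 376 and 149, and the t-test 18 and 10.

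Of the other pathway genes, 5 were called in TBI against control, 16 with 75th-percentile scaling, 17 with slide as a random block, 8 with dim probes left out, 2 in a model of 2 groups, 0 in the t-test and 0 to 8 without 1 rat. For MASM + TBI against control, 1 was called, 7 with slide as a random block, 4 with dim probes left out, 2 in a model of 2 groups, 2 with normexp, 0 in the t-test, 0 with slide as a fixed block (chosen after seeing the data) and 0 to 3 without 1 rat. For MASM + TBI against TBI, 0 were called, 7 with 75th-percentile scaling, 4 with slide as a random block and 0 to 5 without 1 rat. The estimated correlation within slides was -0.133, so this block lowers the standard errors. The cause of the other shifts was not tested.

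The replicate numbers did not pair the rats: deviations of same-numbered rats correlated between -0.125 and 0.169. With the replicate number as a block, 2, 0 and 0 members were called, and 1 pathway gene in TBI against control; over all probes 470 rose and 556 fell in TBI against control in place of 821 and 1021.

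Over all probes, normexp left 205 up and 348 down in TBI against control, and the t-test 6 and 4. Signal over background limits Ptges, Alox5, Pla2g5 and Ptgs2. Slide and the TBI group cannot be told apart, and control shares its slide with 1 MASM + TBI rat only.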
